A study of Mus musculus with 20 samples.

Results

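Autophagy and lysosome genes were followed in the liver of mouse fetuses whose mothers were nutrient-restricted. The set is a list of 38 genes, named by function with earlier results of these data known: 21 that build the autophagosome or load cargo into it, 15 that encode proteins of the lysosome, and the transcription factors Tfeb and Tfe3. All 38 were found by symbol in the gene annotation, and all 38 passed the filter on low counts, among 17573 genes tested. At embryonic day 18.5, shortly before birth, polyadenylated RNA was taken from the right liver lobe of 20 males of the CD-1 IGS strain, an outbred stock. Control dams carried 10 of them, and the other 10 developed under maternal nutrient restriction (MNR). Each group had 5 litters, lettered A to E, with 2 fetuses from each litter, and a letter shared by a control and an MNR litter does not mean a shared dam. The labels give neither the amount, the kind nor the timing of the restriction, and no agent or genetic change is named for either group.

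Autophagy encloses part of the cytoplasm in a double membrane, the autophagosome, which then fuses with a lysosome so that its content is digested and the building blocks are reused. The kinases Ulk1 and Ulk2 and the lipid kinase complex of Becn1 and Atg14 start the process, Atg9a, Atg2a, Wipi1 and Wipi2 supply and extend the membrane, and the conjugation enzymes attach the small LC3 and GABARAP proteins to it. Receptors such as Sqstm1 (p62), Nbr1 and Fam134b bind those small proteins and bring cargo. The liver is known for strong autophagy during fasting and just after birth, when the supply of nutrients through the placenta ends. Tfeb and Tfe3 bind CACGTG-centred sites at many lysosomal and autophagy genes and are held in the cytoplasm by the nutrient-sensing kinase mTORC1.

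The sequence before the starts of the genes the results turn on is described next. RefSeq windows of GRCm38.p6, from 250 bases before a start to 50 after it, were at hand for 33 of the 38 members (Fam134b under its present symbol Retreg1). Map1lc3a, Becn1, Atg12, Npc1 and Ctsb had none. Searched were CACGTG (the core of the sites of Tfeb and Tfe3), its longer form TCACGTGA, TTGCNNAA (a form of the site of the C/EBP factors of liver) and TGTTTAC (the FOXO site), on both strands, where a TCACGTGA match always holds a CACGTG match. Fam134b, which gave the largest difference between the groups, has 4 RefSeq starts. The 250 bases before starts 1, 3 and 4 are shown because a counted transcript of Fam134b begins nearby, and capitals mark matches to CACGTG or TTGCNNAA.
Fam134b start 1, chr15:25843048-25843297, plus strand: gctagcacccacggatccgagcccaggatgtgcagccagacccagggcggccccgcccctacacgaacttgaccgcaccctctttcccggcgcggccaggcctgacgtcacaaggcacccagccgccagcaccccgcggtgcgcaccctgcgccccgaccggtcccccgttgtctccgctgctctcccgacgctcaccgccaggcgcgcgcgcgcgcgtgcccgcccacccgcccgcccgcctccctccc
Fam134b start 3, chr15:25940452-25940701, plus strand: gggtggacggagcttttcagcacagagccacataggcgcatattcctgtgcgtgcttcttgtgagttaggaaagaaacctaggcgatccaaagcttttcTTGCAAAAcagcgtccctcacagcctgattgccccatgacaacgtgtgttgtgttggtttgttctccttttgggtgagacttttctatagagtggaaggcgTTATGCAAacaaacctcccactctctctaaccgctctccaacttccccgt
Fam134b start 4, chr15:25942429-25942678, plus strand: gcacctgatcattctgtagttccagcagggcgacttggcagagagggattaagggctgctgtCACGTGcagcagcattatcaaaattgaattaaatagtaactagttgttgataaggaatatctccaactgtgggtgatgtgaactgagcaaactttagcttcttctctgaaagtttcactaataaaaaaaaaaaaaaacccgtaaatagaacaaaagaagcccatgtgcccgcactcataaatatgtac
Start 3 holds TTGCNNAA at 2 places, with first bases at -151 and -50 from the start, and start 4 holds 1 CACGTG at -188. No match to the 4 motifs lies before start 1. Of all 32851 windows of this length in the table, 7.15% hold CACGTG and 10.8% hold TTGCNNAA.

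The CACGTG core was in the windows of 7 of 13 lysosomal members (Lamp1, Mcoln1, Ctsa, Ctsd, Ctsl, Gaa and Gla) and of 5 of 18 autophagosome members (Fam134b, Atg14, Atg3, Atg5 and Atg7), against 8.09% of all 27025 genes with a window. The longer TCACGTGA was in those of 4 lysosomal members (Mcoln1, Ctsa, Ctsd and Gla) and of Atg3, against 1.12% of genes. TTGCNNAA was in those of 3 lysosomal and 4 autophagosome members, against 12.2% of genes, and TGTTTAC in those of 0 members, against 4.05%. A gene was counted where any of its windows held a match, so genes with several starts had more windows to match in. Fam134b holds CACGTG at start 4 only. These are matches of letters, and no binding was measured. The bases before 4 lysosomal starts are shown because each stretch carries 2 or more CACGTG matches, while the mRNA of these genes, given below, did not pass the test. Start 2 of Ctsa, not shown, has matches with first bases at -12 and, past the start, at 5. Capitals mark CACGTG or, where present, TCACGTGA.
Lamp1, chr8:13158911-13159160, plus strand: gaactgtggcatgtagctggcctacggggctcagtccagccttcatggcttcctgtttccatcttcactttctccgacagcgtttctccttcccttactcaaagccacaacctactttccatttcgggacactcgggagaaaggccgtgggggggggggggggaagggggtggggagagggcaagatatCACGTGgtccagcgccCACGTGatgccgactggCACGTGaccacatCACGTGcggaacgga
Mcoln1, chr8:3500269-3500518, plus strand: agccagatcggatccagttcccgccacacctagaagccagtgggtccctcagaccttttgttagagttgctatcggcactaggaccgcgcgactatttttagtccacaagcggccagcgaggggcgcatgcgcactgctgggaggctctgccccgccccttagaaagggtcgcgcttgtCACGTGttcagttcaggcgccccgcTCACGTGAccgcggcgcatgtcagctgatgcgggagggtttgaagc
Ctsd, chr7:142387828-142388077, minus strand: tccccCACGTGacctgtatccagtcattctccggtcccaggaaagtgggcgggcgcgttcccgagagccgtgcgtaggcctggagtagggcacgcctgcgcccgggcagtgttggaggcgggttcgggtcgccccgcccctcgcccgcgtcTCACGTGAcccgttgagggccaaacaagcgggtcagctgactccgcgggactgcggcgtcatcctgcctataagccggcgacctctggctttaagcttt
Gla, chrX:134601006-134601255, minus strand: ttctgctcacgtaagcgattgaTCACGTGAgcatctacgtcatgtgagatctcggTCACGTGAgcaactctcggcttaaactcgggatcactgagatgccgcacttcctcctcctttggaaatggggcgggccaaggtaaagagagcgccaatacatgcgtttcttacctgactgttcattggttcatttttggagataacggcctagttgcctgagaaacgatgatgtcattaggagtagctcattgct

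Reads had been counted to a depth of 14925778 to 28016953 per fetus, and 0.0788% to 0.154% of a fetus's counts fell on transcripts without a gene in the annotation. Counts of littermates were summed, because the dam received the diet, so the litter is the replicate and p-values measure the spread between litters. Levels are in CPM, counts scaled to the size of the library, as mean ± SD over 5 litters. A difference is the log2 fold change of MNR over control with its standard error (SE). Tests are those of edgeR's quasi-likelihood fit on all 17573 genes, and a gene passed where its p, adjusted by Benjamini-Hochberg over these genes, was under 0.05. Hepatocyte markers (Alb, Afp, Ttr and 6 others) summed to 157017 to 182151 CPM in control and 142943 to 174611 CPM in MNR litters, so the tissue is liver by its defining genes. Transcripts of exocrine pancreas stood apart in 3 fetuses, B_1 of control and B_1 and E_1 of MNR, at 44.6 to 148 CPM against 6.10 to 26.4 CPM in the other 17. Without these 3 fetuses the differences given below for single members were 0.44 for Gabarapl1, 0.19 for Map1lc3b, 0.21 for Atg9a, 0.37 for Npc1 and -0.12 for Sqstm1 on the log2 scale, and 0 of these 5 passed, as with them.

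Per base of exon, the lysosomal members were the more abundant class. The 6 highest of the 38 in control litters were all lysosomal: the cathepsin proteases Ctsl (258 ± 52.0 CPM per kb), Ctsb (136 ± 5.19) and Ctsd (128 ± 3.06), the membrane glycoprotein Lamp1 (104 ± 3.81), the acid lipase Lipa (78.8 ± 11.2) and the cathepsin Ctsz (68.7 ± 11.2). Gabarap, at 64.2 ± 2.25 CPM per kb, led the autophagosome members, followed by Map1lc3b at 57.7 ± 3.37 and Sqstm1 at 45.0 ± 1.30. Ctsl lay above all others by more than its SD, whereas the means of Lipa, Ctsz and Gabarap each lay within 11.2 CPM per kb of the next, the SD of Lipa and of Ctsz. Tfeb was the lowest of the 38, at 1.33 ± 0.119 CPM per kb, below the alpha-galactosidase Gla at 1.86 ± 0.182 and Tfe3 at 2.75 ± 0.0383. The median over members was 32.0 CPM per kb for the 15 lysosomal and 9.34 for the 21 autophagosome members. Lengths are the union of all annotated exons, which lowers the value of a gene with long, rarely used exons.

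**Figure D1:**
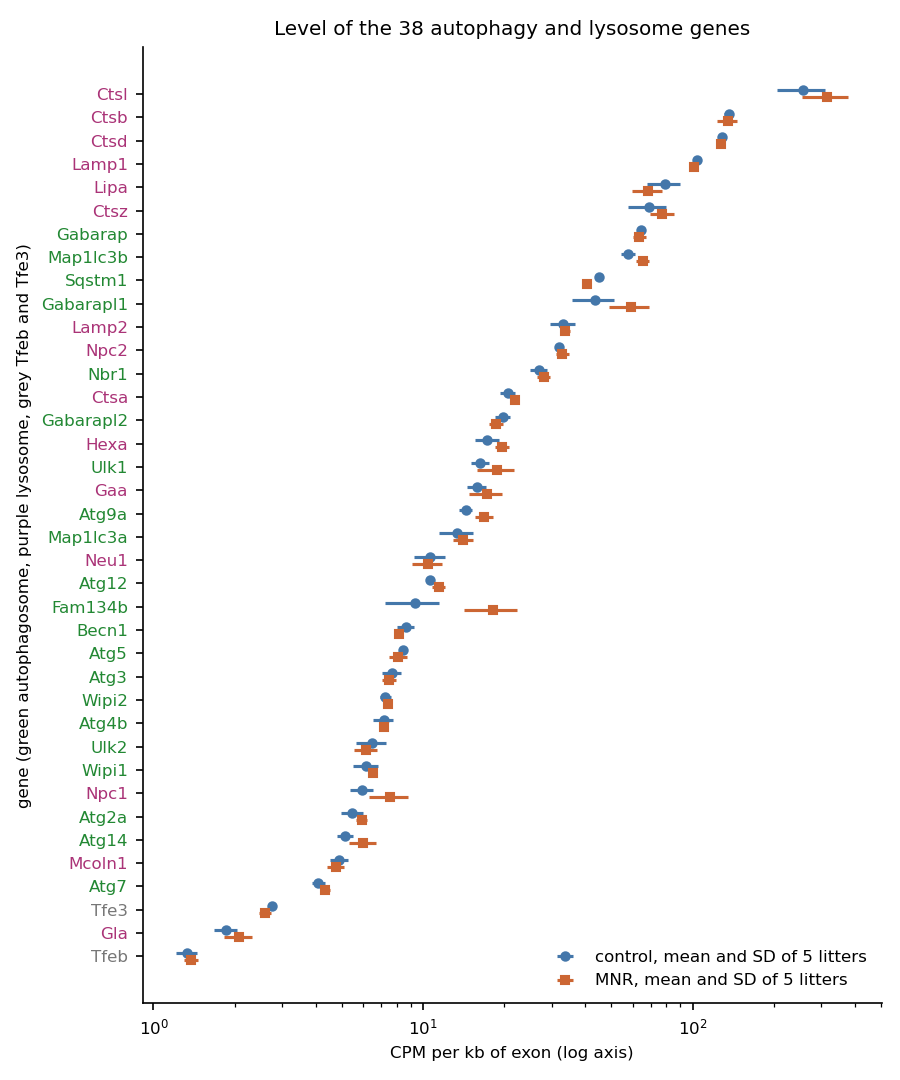
Level of each of the 38 genes in CPM per kb of exon (log axis), as mean and SD of 5 control litters (circles) and 5 MNR litters (squares). The 6 highest are lysosomal genes, Tfeb is the lowest, and the means of the groups lie apart by more than the summed SDs for Fam134b, Sqstm1, Map1lc3b and Atg9a.

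Of the 38 members, 1 passed the threshold: Fam134b was higher in MNR. Over all genes, 117 of 17573 passed (0.666%), 73 higher in MNR (0.415%) and 44 lower (0.25%). The share of members is 1 gene and is not read further. At an unadjusted p under 0.05, 7 members were higher in MNR (6 under upper-quartile scaling), where 9.95% of all genes were. In the other direction 1 was lower (2 under upper-quartile scaling), where 9.69% of all genes were. Both shares of all genes are those of the fit as reported, and those under upper-quartile scaling are not given here. The log2 fold change was positive for 24 of 38 members, with a median of 0.05, beside 49.4% of all genes and a median of -0.003. Under upper-quartile scaling, which lowered the median of all genes to -0.03, 21 of 38 were positive, and Wipi2, Atg4b and Lamp2 turned negative. For 34 of 38 members the 95% interval of the log2 fold change lay inside a 1.5-fold change in either direction. The exceptions were Fam134b, Gabarapl1, Npc1 and Ctsl. These intervals are not adjusted for the number of genes, and the share of all genes inside this limit was not computed.

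**Figure D2:**
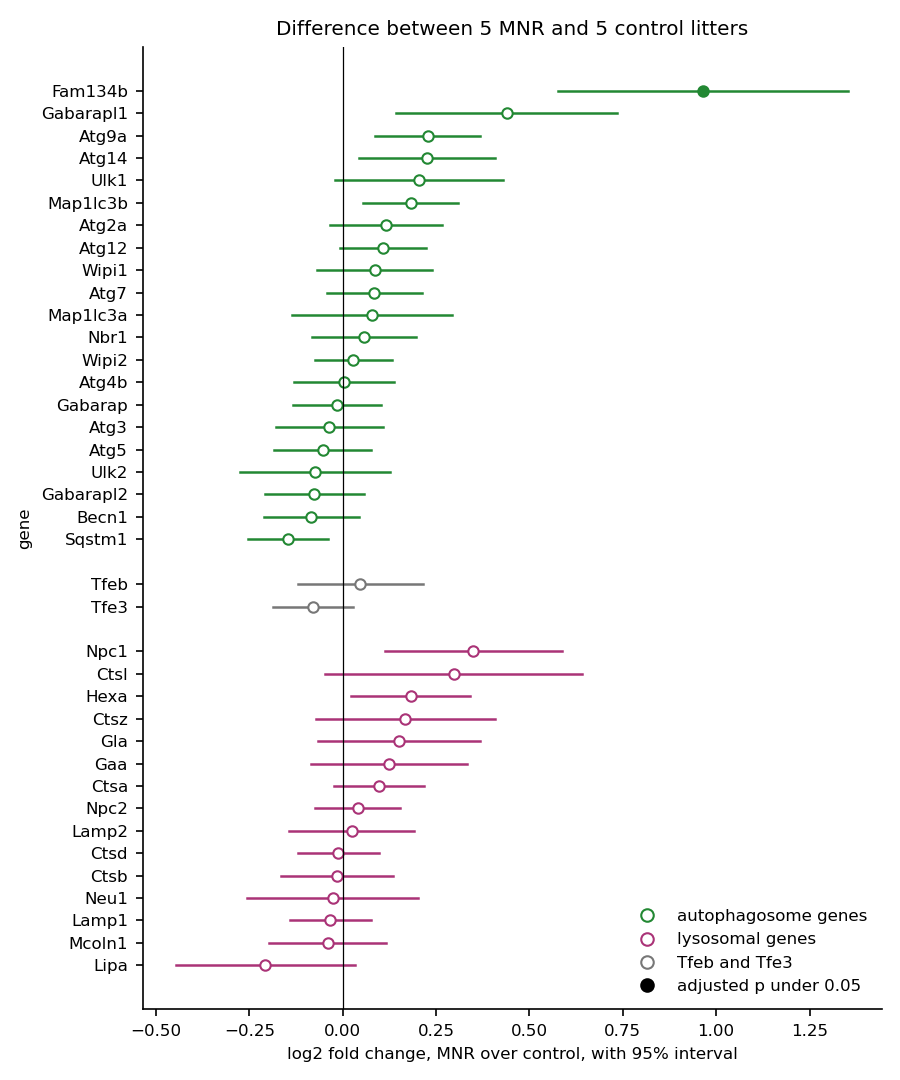
Log2 fold change of MNR over control with its 95% interval for the 21 autophagosome genes, Tfeb and Tfe3, and the 15 lysosomal genes. The filled point, Fam134b at 0.97, is the member past the threshold, and most other intervals span 0.

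Fam134b (Retreg1) encodes a receptor in the membrane of the endoplasmic reticulum that binds LC3 and GABARAP proteins and sends sheets of that membrane to the lysosome, a process called ER-phagy. Its litter values were 25.5, 42.1, 28.5, 27.1 and 37.9 CPM in control litters A to E and 74.2, 68.0, 54.5, 42.4 and 75.3 CPM in MNR litters A to E. The groups did not overlap, although MNR litter D lay only just above control litter B, and under upper-quartile scaling the order of these litters turned (42.4 and 42.6 CPM). Every MNR litter was above every control litter for 2.28% of all genes. The means were 32.2 ± 7.31 and 62.9 ± 14.1 CPM, a 1.95-fold difference (log2 fold change 0.97, SE 0.18, 95% interval 0.58 to 1.35, edgeR adjusted p = 0.0416).

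Among single fetuses, 9 of 10 in the MNR group lay above all 10 control fetuses. The fetuses are pairs of littermates and not 10 separate replicates, and the share of all genes with such a count was not computed. Control fetuses ranged from 22.8 to 45.0 CPM with a median of 29.5, and MNR fetuses from 35.0 to 99.2 with a median of 61.2. The exception was fetus D_1 of the MNR group, at 35.0 CPM beside 56.0 CPM in its littermate. MNR littermates differed most in litter A, where fetus 1 had 49.3 and fetus 2 had 99.2 CPM, a 2.01-fold gap. The largest gap in a control litter was 1.204-fold, in litter D.

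The call of Fam134b sat close to the threshold, while its size moved little. Over 22 other fits the log2 fold change stayed between 0.88 and 1.08, and 12 of them passed, with adjusted p-values from 2.77e-05 to 0.312. It was lost with fetus 1 of each litter alone (adjusted p = 0.312), with the macrophage marker level as a covariate (0.116), and in 8 of the 10 fits that left out 1 litter (control A, C, D or E, or MNR A, B, C or E, at 0.0575 to 0.119). It passed without control litter B (0.0156), without MNR litter D (0.00945) and without the 3 fetuses high in pancreatic transcripts (0.0273). In these fits 4.75%, 2.89% and 1.22% of the genes tested passed, in that order. Where Fam134b was lost, at most 0.17% of the genes tested passed, so its call came and went with the count over all genes.

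**Figure D3:**
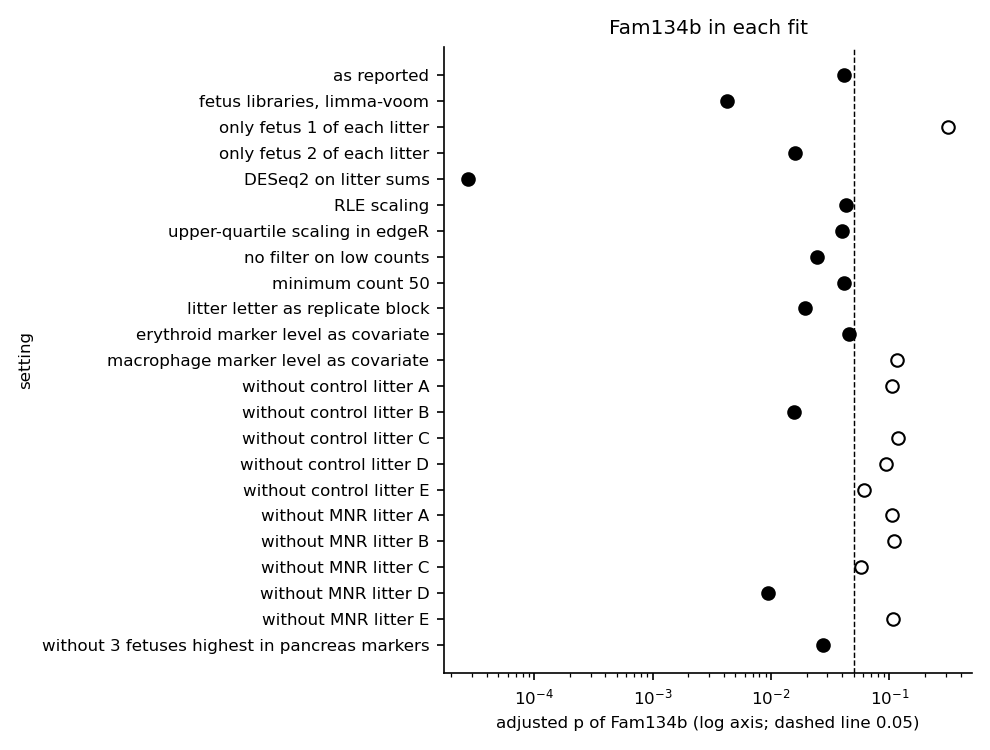
Adjusted p of Fam134b (log axis) in the fit as reported and in 22 other fits, with filled points below the dashed line at 0.05. The 10 open points lie between 0.0575 and 0.312.

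Fam134b lies on chromosome 15 at 25773019 to 25903442 (NCBIM37, plus strand), shares no exon with another gene, and none of its 50-base words occurs in a transcript of another gene. The counts name 3 transcripts. The longest (3164 bases) begins 34 bases from RefSeq start 1 when that window is found on NCBIM37, the transcript of 1512 bases begins 185 bases from start 3, and the one of 1430 bases begins at start 4. A shorter protein made from an inner start of this gene is known in the liver of starved mice. The long transcript held 70.2% of the gene's counts and went from 22.6 ± 4.49 CPM in control to 44.0 ± 10.2 CPM in MNR litters. The 2 short ones went from 5.13 ± 1.48 to 9.90 ± 2.14 CPM (start 3) and from 4.49 ± 0.636 to 8.84 ± 2.33 CPM (start 4). The ratios of MNR to control were 1.95, 1.93 and 1.97, so the 3 transcripts differed between the groups by nearly the same ratio. Only 182 and 103 bases of the short transcripts are found in no other transcript of the gene, against 1834 of the long one, and the assignment of reads in shared exons is not described in these sources. These transcript values use total counts without the scaling applied to the gene values, and are a description with no test.

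Neither of the other receptors passed. Sqstm1, the receptor of ubiquitin-tagged cargo, had 147, 158, 151, 148 and 152 CPM in control litters A to E and 139, 131, 131, 140 and 141 CPM in MNR litters. All 5 MNR litters lay below all control litters, as they did for 2.23% of all genes. Its log2 fold change was -0.15 (SE 0.05, 151 ± 4.36 to 136 ± 4.75 CPM), and edgeR's adjusted p of 0.133 did not pass. An annotated gene on the opposite strand, 3010026O09Rik, covers 15.5% of its 50-base words at under 2 CPM in either group. Nbr1, a receptor of similar build, stood at 183 ± 12.7 CPM in control and 191 ± 10.3 in MNR (log2 fold change 0.06, 95% interval -0.08 to 0.20).

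The 5 LC3 and GABARAP genes, whose products coat the autophagosome, differed among themselves. Gabarapl1 had 77.0, 86.5, 64.7, 61.5 and 93.7 CPM in control litters A to E and 134, 102, 101, 88.2 and 94.1 CPM in MNR litters. The groups overlapped at MNR litter D, below control litter E. A gene on the opposite strand, 1700101I11Rik, overlaps its exons and had too few counts to be tested. The difference was 0.44 on the log2 scale (SE 0.14, 95% interval 0.14 to 0.73, edgeR adjusted p = 0.115), and fetus A_2 of the MNR group, whose Fam134b was also the highest, had the highest value of any fetus at 172 CPM.

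Map1lc3b, which encodes the LC3 protein used most as a marker of autophagosomes, had 94.97, 106, 92.6, 96.6 and 103 CPM in control litters and 112, 112, 105, 121 and 109 CPM in MNR litters. Control litter B lay just above MNR litter C, and all other MNR litters lay above the control litters. Its log2 fold change was 0.18 (SE 0.06, edgeR adjusted p = 0.125), and 32.1% of its 50-base words recur in the annotated copies Gm6055, Gm12727 and Gm6054, so its counts are uncertain to that extent. Of the words of Gabarapl2, 10.7% recur in the copies Gm3724 and Gm5829. Gabarap, Gabarapl2 and Map1lc3a had log2 fold changes of -0.02, -0.08 and 0.08, with 95% intervals that all lay within -0.21 to 0.29. Of the 5, 0 passed.

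The genes that start autophagy and supply its membrane had mostly positive differences, none past the threshold. Atg9a, the membrane protein of the vesicles that seed the autophagosome, had 57.6, 60.5, 54.7, 63.2 and 61.8 CPM in control litters and 77.0, 73.0, 67.9, 62.6 and 68.1 CPM in MNR litters. Here 4 of 5 MNR litters lay above all control litters, and MNR litter D lay among them. The log2 fold change was 0.23 (SE 0.06, edgeR adjusted p = 0.0964). It passed without MNR litter D, at 0.0494, in a fit where 2.89% of the genes tested passed.

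Atg14, the subunit that directs the lipid kinase to autophagy, had a log2 fold change of 0.23 (SE 0.08, 17.7 ± 1.19 to 20.7 ± 2.39 CPM, edgeR adjusted p = 0.168), and the kinase Ulk1 one of 0.21 (SE 0.10, 85.0 ± 6.76 to 98.0 ± 15.5 CPM, adjusted p = 0.296). Ulk2 and Becn1 stood at -0.07 and -0.08. Becn1 shares 36.8% of its 50-base words with other genes, among them Cntd1 on the opposite strand (1.16 CPM in control and 1.13 CPM in MNR litters), so its value is uncertain. Atg2a, which moves lipid into the growing membrane, and the lipid-binding Wipi1 and Wipi2 had log2 fold changes of 0.12, 0.09 and 0.03, the last turning to -0.002 under upper-quartile scaling. Among the conjugation enzymes, Atg12, a ubiquitin-like protein, had 0.11 (SE 0.05, 26.4 ± 0.858 to 28.5 ± 1.64 CPM, adjusted p = 0.284). Atg3, Atg4b, Atg5 and Atg7 lay between -0.05 and 0.09. Of these 13 genes, 0 passed.

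**Figure D4:**
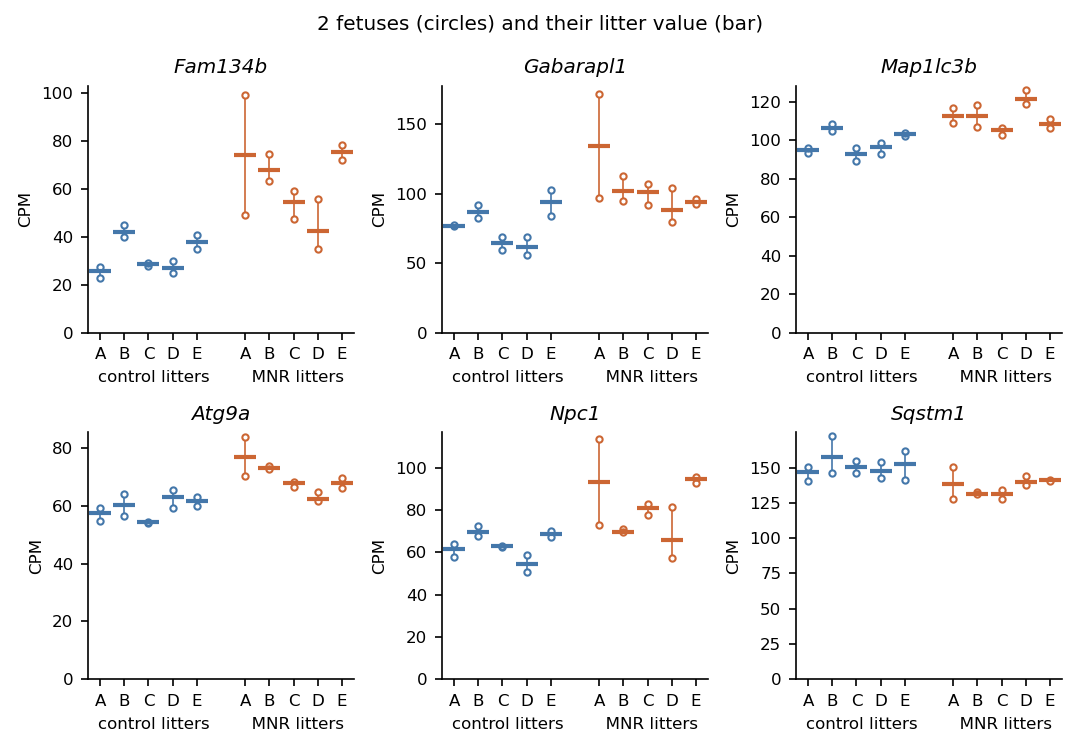
CPM of 6 genes in the 5 control and 5 MNR litters, with circles for the 2 fetuses of a litter and a bar for the litter value, on axes from 0. The litter bars of the groups do not overlap for Fam134b, higher in MNR, and Sqstm1, lower in MNR, and overlap for the other 4.

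No lysosomal member passed the threshold, and Npc1 had the largest difference among them. Npc1, which exports cholesterol from the lysosome, had 61.7, 69.7, 63.0, 54.3 and 68.8 CPM in control litters and 93.2, 69.8, 81.1, 66.0 and 94.6 CPM in MNR litters. MNR litter D fell within the control range and MNR litter B lay at its upper edge. The overlapping gene 3110002H16Rik on the opposite strand had 32.1 CPM in control and 32.4 CPM in MNR litters, and 2.07% of the words of Npc1 occur in other genes. The log2 fold change was 0.35 (SE 0.11, 95% interval 0.11 to 0.59, edgeR adjusted p = 0.115). Its partner Npc2, which hands cholesterol to it, stood at 0.04 (95% interval -0.08 to 0.15).

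Ctsl, the cysteine protease cathepsin L and the most abundant member per base of exon, had 481, 630, 580, 363 and 492 CPM in control litters and 680, 497, 581, 560 and 810 CPM in MNR litters. The ranges overlapped widely. Its log2 fold change was 0.30 (SE 0.16, 95% interval -0.05 to 0.64, edgeR adjusted p = 0.324). The proteases Ctsb and Ctsd had differences near 0. Ctsb had 646 ± 24.6 and 639 ± 52.9 CPM (log2 fold change -0.02, SE 0.07, 95% interval -0.16 to 0.13, edgeR adjusted p = 0.927). Ctsd had 323 ± 7.72 and 321 ± 8.67 CPM (-0.01, SE 0.05, -0.12 to 0.10, adjusted p = 0.918). Of Ctsb's 50-base words, 15.4% lie in Fdft1, an overlapping gene on the opposite strand, which had 132 CPM in control and 101 CPM in MNR litters. Ctsa and Ctsz stood at 0.10 (SE 0.06, adjusted p = 0.362) and 0.17 (SE 0.11, adjusted p = 0.435). Both have an overlapping gene on the opposite strand, Pltp (21.3 and 19.5 CPM) with Neurl2 for Ctsa, which shares 11.6% of its words, and Th1l (37.1 and 33.4 CPM) for Ctsz, which shares 0%. Ctsd shares 4.45% with 6330512M04Rik on its own strand (1.59 and 1.66 CPM).

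Lamp1, the major glycoprotein of the lysosomal membrane, had 234 ± 8.59 CPM in control and 229 ± 4.87 CPM in MNR litters (log2 fold change -0.03, SE 0.05, 95% interval -0.14 to 0.08, edgeR adjusted p = 0.755). It shares 5.80% of its words with Grtp1 on the opposite strand, at 5.69 and 5.92 CPM. Lamp2 and the calcium channel Mcoln1 had log2 fold changes of 0.02 (-0.01 under upper-quartile scaling) and -0.04. Among the enzymes, Hexa, a subunit of the hexosaminidase that degrades gangliosides, had 0.18 (SE 0.07, 32.4 ± 3.34 to 36.7 ± 2.22 CPM, adjusted p = 0.199). Lipa, which splits cholesteryl esters and triglycerides, had the most negative value of all members, -0.21 (SE 0.11, 234 ± 33.2 to 203 ± 25.3 CPM, adjusted p = 0.321). The acid glucosidase Gaa, which digests glycogen in the lysosome, Gla and the sialidase Neu1 had 0.12, 0.15 and -0.03. Of the 15, 0 passed.

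Tfeb and Tfe3 themselves had log2 fold changes of 0.05 (SE 0.08, 95% interval -0.12 to 0.22, 7.55 ± 0.674 to 7.80 ± 0.463 CPM, edgeR adjusted p = 0.778) and -0.08 (95% interval -0.19 to 0.03). Their activity is set mainly by where the protein sits in the cell, which mRNA counts do not measure.

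The autophagosome and lysosomal members were then set side by side. The log2 fold change was positive for 14 of 21 autophagosome members, with a median of 0.08, and for 9 of 15 lysosomal members, with a median of 0.04. The mean log2 CPM of the 21 autophagosome members was 5.44 to 5.57 in control litters and 5.58 to 5.64 in MNR litters. The groups thus lay apart by little, and by less under upper-quartile scaling (5.573 in the highest control and 5.578 in the lowest MNR litter). With the scaling as reported, the other 20 without Fam134b gave 5.47 to 5.582 in control and 5.587 to 5.61 in MNR litters. Without Fam134b and Gabarapl1 the groups overlapped. These means without single members were not computed under upper-quartile scaling, so a separation without Fam134b is not shown there. The mean of the 15 lysosomal members was 6.51 to 6.74 in control and 6.68 to 6.80 in MNR litters, with overlap. From control to MNR the class means moved by 0.11 and 0.07, and the difference between these shifts, 0.037 (0.029 without the 3 fetuses high in pancreatic transcripts), was smaller than its pooled SD over litters of 0.078. These means are a description with no test, and the classes are not shown to differ.

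**Figure D5:**
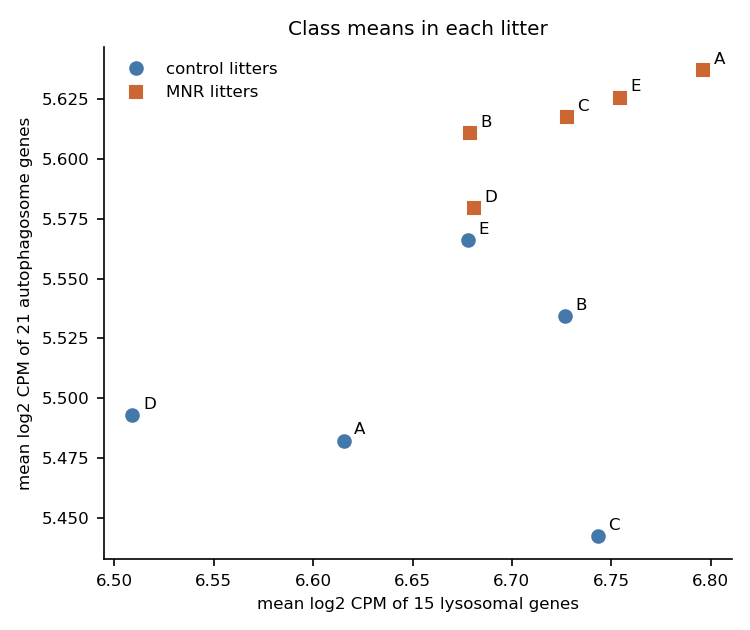
Mean log2 CPM of the 21 autophagosome genes against that of the 15 lysosomal genes in each litter, lettered A to E, with circles for control and squares for MNR. The MNR litters lie at 5.58 to 5.64 on the vertical axis, above the control litters at 5.44 to 5.57, while the horizontal ranges overlap.

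The spread within and between litters differed among the members. The median gap between the 2 fetuses of a litter, over 10 litters, was 0.07 to 0.25 on the log2 scale across members. Between litters, Fam134b varied most in both groups, with a coefficient of variation of 22.7% in control and 22.5% in MNR, beside medians over members of 7.88% and 5.97%.

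Other genes of the pathway were read in 6 lists drawn up by function with earlier results of these data known. They gave 0 calls in either direction among 141 genes tested, beside 0.666% of all genes. With so small a share over all genes, the 0 is not read further. Of 15 other autophagy and mitophagy receptors, 14 had a positive log2 fold change, beside 49.4% of all genes. At an unadjusted p under 0.05, 10 were higher in MNR, beside 9.95% of all genes. Under upper-quartile scaling 6 were, and the share of all genes under that scaling is not given here. The smallest p-values were those of Stbd1, a receptor for glycogen (0.24, edgeR adjusted p = 0.0952), and Bnip3, a mitophagy receptor (0.60, from 289 ± 81.1 to 436 ± 81.1 CPM, adjusted p = 0.115). Of 30 other genes of the autophagy machinery, 20 were positive, and the smallest p-values were those of Uvrag, a partner of Becn1 (0.32, edgeR adjusted p = 0.0522), and, lower in MNR litters, Tmem41b, a lipid scramblase of the endoplasmic reticulum (-0.30, adjusted p = 0.0676).

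Of 23 genes of lysosomal nutrient sensing, 16 were positive, and Fnip1, a partner of folliculin (0.43, adjusted p = 0.0581 in edgeR), and Slc38a9, the arginine sensor of the lysosome (0.28, adjusted p = 0.0785), had the smallest p-values. For both, the MNR litters all lay above the control litters, as they did for 3 of the 23 and for 2.28% of all genes. Among 39 other hydrolases and cofactors 30 were positive, with a median of 0.10. The 16 subunits of the proton pump that acidifies the lysosome had a median of 0.04, with Atp6v1e1 at 0.21 (adjusted p = 0.120) and Atp6v0a2 at -0.16 (adjusted p = 0.255). The 18 other membrane proteins and sorting receptors had a median of 0.01, or -0.02 under upper-quartile scaling, with Laptm4a at -0.12 (adjusted p = 0.192) and Scarb2 at 0.21 (adjusted p = 0.226).

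Markers of other cell types of the fetal liver, some of them rich in lysosomes, were read from the same fit. Of these markers, 0 passed the threshold, beside 0.666% of all genes. In bulk tissue, fewer cells of a type and less RNA per cell cannot be told apart. Macrophage markers were higher for 9 of 12 genes (median 0.11), with summed levels of 434 to 547 CPM in control and 487 to 590 CPM in MNR litters. Neutrophil and myeloid precursor markers were positive for 9 of 9 (median 0.26), at 2252 to 2606 and 2474 to 3593 CPM, and megakaryocyte markers for 6 of 6 (median 0.25), at 214 to 265 and 235 to 276 CPM. Erythroid markers were negative for 10 of 10 (median -0.10), at 22034 to 34995 and 22771 to 30665 CPM, and stellate cell markers for 7 of 7 (median -0.26), at 535 to 717 and 505 to 652 CPM. With the erythroid level as a covariate Fam134b passed, at 0.0452. With the macrophage level as a covariate it did not (0.116, log2 fold change 0.96), and of all genes only Nr1d1, named here after its value was seen, passed. The part of the myeloid, megakaryocyte and stellate markers in the members' values was not tested.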

How the data were processed

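The authors deposited whole-number read counts per transcript for each of the 20 fetuses, and transcripts without a read are not listed. The submitters' processing notes name FastQC, Bowtie2, DESeq2, edgeR and the mouse build mm9. The counting tool was not given in the sources used here, nor were the strand setting and the treatment of multiply matching reads. This makes values of genes with near-identical copies or overlapping partners uncertain, which the text states beside them. Libraries came from a strand-preserving kit, per the labels' protocols. A deposited gene table of the series was not used, because it equalled the summed counts for only 8.52% to 9.66% of genes.

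Counts were summed to genes by the GENCODE annotation of that build (release M1 on NCBIM37) and then over the 2 littermates, giving 5 control and 5 MNR litters. Genes passed filterByExpr (minimum count 10), were scaled with TMM and tested two-sided with edgeR 4.0.16 (glmQLFit and glmQLFTest, R 4.3.3). CPM values of single fetuses use TMM over the 20 fetuses. Those of pancreatic transcripts per fetus and of the single Fam134b transcripts per litter use unscaled totals. Levels per kb divide CPM by the exon union. Words of 50 bases were compared on both strands between the transcripts of members and of all other genes. On simulated counts of 5 against 5 litters over 17573 genes, the fit found 73 of 100 genes altered 1.5-fold and 96 of 100 altered 2-fold. Among its 180 calls, 11 genes were false. The spread of the simulated litters is not described here, so these counts are not read as the power or stability of the real comparison. The labels do not say that a litter letter links a control and an MNR dam, and the litters were not treated as pairs.

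The members and gene lists were chosen with earlier results of these data known. Full statistics are given for members past the threshold, for the 6 others of smallest p in each class, and for Gabarapl1, Map1lc3b, Sqstm1, Ulk1, Tfeb, Lamp1, Ctsb, Ctsd and Ctsl. From each pathway list the 2 genes of smallest p are named, except some that are not reported here. Of the pathway lists, Wipi3 could not be matched. Marker lists of endothelial and bile duct cells had medians of -0.03 and 0.03 (log2), and 3 of 6 exocrine pancreas markers could be tested, with a median of -0.42. Alternatives were limma-voom (limma 3.58.1) on fetuses, a single fetus per litter, DESeq2 1.42.0, other scalings, other filters, the litter letter as a replicate block, marker levels as covariates, each litter left out and, chosen after seeing the data, the removal of 3 fetuses high in pancreatic transcripts.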

Additional observations from a re-analysis of the deposited data

Results flagged for a closer look

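Among 76 groups of 5 litters (38 genes in each diet group), 2 held a litter far from the other 4 by Dixon's ratio (critical value 0.71), where chance alone flags about 5%. Ulk2, a kinase that starts autophagy, was at 43.2 CPM in MNR litter D against 34.6 to 35.4 CPM in the other MNR litters. Atg2a, a lipid transfer protein, was at 41.8 CPM in MNR litter B against 45.8 to 47.4 CPM in the others. Both values lie within the range of the control litters.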

How the results depend on the processing

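The log2 fold change of the 38 members was recomputed in 22 other fits, 836 values in all where an adjusted p was given. Of these, 791 kept direction and side of the threshold, 10 lost the call (all Fam134b), 8 gained one and 27, in 11 members near 0, changed sign. The 117 genes past the threshold became 1088 with limma-voom on fetuses, 1128 with DESeq2, 178 with upper-quartile scaling (38.2% of them higher in MNR, against 62.4% as reported), 1 with the macrophage covariate, 215 without the 3 fetuses high in pancreatic transcripts, 499 with fetus 2 alone and 0 with fetus 1 alone, where 1699 genes had an unadjusted p under 0.05. Leaving out a litter gave 0 to 843 genes. The 0 came without control litter A, C or E and without MNR litter B or E. It was 2 without control D or MNR A, 30 without MNR C, 512 without MNR D and 843 without control B. The 1 member past the threshold became 3 with limma-voom (Fam134b, Map1lc3b and Atg9a), where 6.74% of the genes tested passed. It became 6 with DESeq2 (these, Gabarapl1 and Npc1 higher, and Sqstm1 lower), where 7.33% of genes with an adjusted p passed. As reported, 0.666% of all genes passed. The count of members was 0 with fetus 1 alone, 0 with the macrophage covariate and 0 to 2 with a litter left out. The 2 came without MNR litter D, where 2.89% of the genes tested passed. The causes were not tested. The difference between the class shifts (0.037) lay between -0.0001 and 0.071 with a litter left out, and was not recomputed with DESeq2, the block or covariates.

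With the litter letter as a replicate block, 232 genes and 1 member, Fam134b, passed. The deviations of litters with the same letter correlated at -0.0093 to 0.184, and 2 of 5 letters matched best with their own, so the letters are not treated as pairs.

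Signs turned as follows (log2). Fetus 1 alone gave Gabarap 0.0037, Map1lc3a -0.057, Atg4b -0.040, Atg5 0.019, Tfeb -0.042 and Ctsb 0.0092. Upper-quartile scaling gave Wipi2 -0.0018, Atg4b -0.027 and Lamp2 -0.0070, and the erythroid covariate Lamp2 -0.023. Without the 3 fetuses, Gabarap was 0.0050, Atg3 0.00054 and Atg4b -0.0081. With a litter left out, Gabarap ranged from -0.038 to 0.0057, Atg3 from -0.062 to 0.016, Atg4b from -0.029 to 0.043, Lamp2 from -0.027 to 0.052, Mcoln1 from -0.083 to 0.0021, Ctsb from -0.059 to 0.019 and Neu1 from -0.081 to 0.039.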
